A study of Homo sapiens with 12 samples.

Results

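FOXO transcription factors and the genes through which they feed back on insulin and PI3K signalling were followed in A375 cells, an established human melanoma line with mutant BRAF. They were the 3 FOXO factors FOXO1, FOXO3 and FOXO4, the insulin receptor gene INSR, the insulin receptor substrates IRS1 and IRS2, the PI3K subunits PIK3CA and PIK3R1, and the PI3K inhibitor PIK3IP1. Members were taken by gene symbol from the table of raw read counts, and all 9 were found among its 44659 genes. RNA was sequenced from 12 libraries in 4 groups of 3. MAPKi cells received 500 nM vemurafenib, a BRAF inhibitor, together with 500 nM cobimetinib, a MEK inhibitor, for 24 h, and their DMSO controls received the solvent. Gln-depleted cells were kept for 24 h in medium with 0 mM glutamine, and their CTRL cells in the medium with 2 mM glutamine that the MAPKi and DMSO cells also had. All groups were the same line in DMEM with 10% serum, so each result describes 1 cell line. The MAPKi and DMSO libraries formed one sequencing batch and the Gln-depleted and CTRL libraries another, so each treatment was compared only with its own control. Replicate 1 of the Gln-depleted and CTRL groups came from experimental batch 1, and replicates 2 and 3 came from experimental batch 2. Nothing in the sample descriptions states that replicates were separate cultures, so the p-values measure the spread between these libraries, which may be technical.

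In insulin signalling, the activated receptor phosphorylates the IRS adaptors, which recruit the PIK3R1 and PIK3CA subunits of PI3K to the membrane. PI3K makes the lipid signal that activates the kinase AKT, and AKT phosphorylates FOXO proteins so that they are held in the cytoplasm. When AKT activity is low, FOXO proteins enter the nucleus and activate genes that include INSR, IRS2 and PIK3IP1, and the former pair can renew the signal whereas PIK3IP1 restrains PI3K. RNA levels do not show where the FOXO proteins are or whether they are phosphorylated.

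The FOXO recognition sequence was read from the promoters of the members to show which of them hold it near the start of the gene. RefSeq promoter windows of assembly GRCh38.p14, from 250 bases before to 50 bases after each start, were searched on both strands for TGTTTAC, whose complement is GTAAACA, and for its core TGTTT, which TGTTTAC contains. TGTTTAC was found in 3 of the 9 members, FOXO4, PIK3CA and PIK3IP1, and in 3.42% of all 35116 windows, and the core was found in 8 of the 9 members and in 44.4% of all windows. INSR was the member without the core in its windows. Of the 16 windows that belong to the 9 members, 3 held TGTTTAC and 10 held the core, which are the counts comparable with all windows. A member with several starts had more chances of a match. The stretches around TGTTTAC, 5′ to 3′ on the strand of the gene and with the match in capitals, were chrX:71095863-71095891 for FOXO4, chr3:179148197-179148225 for PIK3CA and chr22:31292455-31292483 for PIK3IP1, the last on the minus strand.
FOXO4: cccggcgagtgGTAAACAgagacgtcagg
PIK3CA: agttcgttgttTGTTTACacgatgtgagc
PIK3IP1: taaagagaggcTGTTTACcagaacagcat
The match began at base 24 after the start in FOXO4, at base -149 in PIK3CA and at base 17 after one of the starts in PIK3IP1. The promoters of the members with the largest rises with MAPKi are shown in addition, as the 250 bases before the start, with TGTTT or its complement AAACA in capitals. They lie on the minus strand at chr13:109786584-109786833 for IRS2 and chr22:31292535-31292784 for PIK3IP1.
IRS2: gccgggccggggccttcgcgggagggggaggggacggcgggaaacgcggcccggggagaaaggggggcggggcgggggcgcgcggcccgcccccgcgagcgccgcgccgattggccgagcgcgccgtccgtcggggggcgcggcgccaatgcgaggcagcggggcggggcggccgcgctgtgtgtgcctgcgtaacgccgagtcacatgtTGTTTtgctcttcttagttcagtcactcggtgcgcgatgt
PIK3IP1: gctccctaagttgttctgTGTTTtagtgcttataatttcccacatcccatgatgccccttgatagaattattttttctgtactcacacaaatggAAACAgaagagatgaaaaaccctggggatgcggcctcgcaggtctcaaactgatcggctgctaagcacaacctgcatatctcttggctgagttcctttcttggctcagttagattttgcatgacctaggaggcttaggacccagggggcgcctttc
A match is a description of the letters, not evidence of binding, and binding was not measured in these libraries. With MAPKi, FOXO4 and PIK3IP1, which held TGTTTAC, rose beyond 1.5-fold, and the difference in PIK3CA, which also held it, did not pass the test. IRS2, INSR and FOXO3 rose beyond 1.5-fold without TGTTTAC in their windows. The part of the motif in these changes was not tested.

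The libraries held between 31056296 and 40071368 counted reads, with a median of 35748567. The treatments were visible in genes known to answer to them. All 11 MAPK pathway targets examined, such as DUSP6 and SPRY4, fell with MAPKi, and 9 of 9 amino acid response genes rose with Gln depletion, 8 of them beyond 1.5-fold. Genes of the melanocyte lineage summed to between 8723 and 11075 CPM (normalized counts scaled to a common library size) in MAPKi libraries and 1335 to 1417 CPM in DMSO libraries, and to 659 to 698 CPM in Gln-depleted libraries and 976 to 1227 CPM in CTRL libraries. Most of the MAPKi sum was DCT, with 6964 to 9230 CPM against 162 to 242 CPM with DMSO. Of the 7 lineage genes, 6 rose with MAPKi against no change, and S100B fell (log2 fold change -2.13). The 9 markers of keratinocytes, fibroblasts, leukocytes and endothelium summed to between 2.42 and 22.8 CPM per library, and CD3E, KRT1 and KRT5 were at 0 in all 4 groups. Most of that sum was the fibroblast marker LUM. It had 10.6 to 13.2 CPM with MAPKi, 16.5 to 22.3 with DMSO, 2.18 to 4.03 with Gln depletion and 11.7 to 20.8 in CTRL. LUM fell against no change with MAPKi (log2 fold change -0.69) and beyond 1.5-fold with Gln depletion (-2.25). The leukocyte marker PTPRC, with at most 17 reads in any library, fell beyond 1.5-fold with MAPKi (-1.81). The small nuclear RNA RN7SK took 3.95 to 4.40% of the reads with MAPKi and 1.93 to 2.15% with DMSO, and 1.99 to 3.79% of the reads with Gln depletion and 1.55 to 2.25% in CTRL. The nuclear RNAs MALAT1 and NEAT1 did not pass the test with MAPKi (log2 fold changes -0.03 and 0.08, in a fit with non-coding genes). With Gln depletion MALAT1 did not pass that test and NEAT1 fell (-0.39 and -1.30). The part of the melanocyte genes and of RN7SK in the results for the members was not tested.

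With MAPKi, PIK3IP1, IRS2, FOXO4, INSR and FOXO3 rose beyond 1.5-fold, and none of the 9 members fell beyond it. The rises ranged from 8.33-fold for PIK3IP1 to 1.68-fold for FOXO3. IRS1 and FOXO1 fell by less than 1.5-fold, PIK3R1 rose slightly, and the decrease in PIK3CA did not pass the test. A gene was called up- or downregulated when edgeR's test against a change of 1.5-fold gave an adjusted p up to 0.05, adjusted over all protein-coding genes tested. By this rule 5 of 9 members were upregulated, where 17% of all 12594 genes tested were, and 0 were downregulated, where 18.6% of all genes were (2 were lower at an unadjusted p under 0.05). Against no change, 6 members rose and 2 fell, where 38.9% and 39.2% of all genes did. The median log2 fold change was 0.75 over the members and 0.00 over all genes tested. DESeq2 called 4 members upregulated and 0 downregulated, without FOXO3, where 1705 and 2007 of 12592 genes were. A fit of all 12 libraries called 2 members upregulated, IRS2 and PIK3IP1, where 1372 of 12627 genes were. In that fit the more variable Gln-depleted and CTRL libraries share in the estimate of the spread. The 3 MAPKi libraries did not overlap with the 3 DMSO libraries in any member, with 6 members higher and 3 lower. Of all genes tested, 40.3% were higher and 40.6% lower without overlap.

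**Figure D1:**
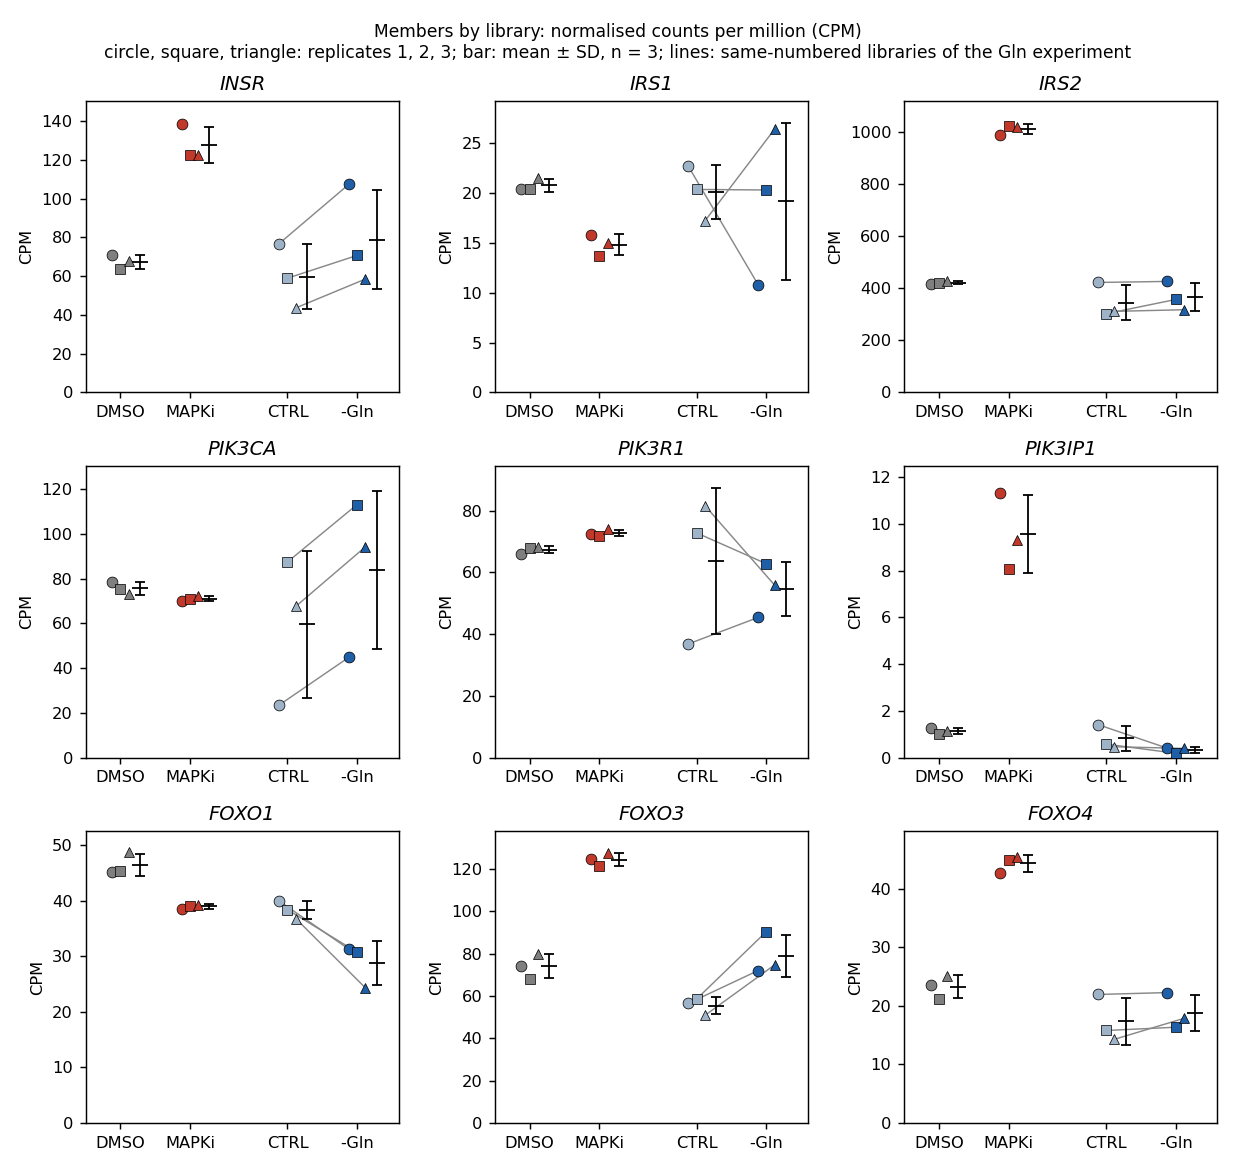
TMM-normalised CPM (linear y axes from 0) of the 9 members in the DMSO, MAPKi, CTRL and Gln-depleted (-Gln) groups, with 1 point for each library, bars for the mean ± SD (n = 3) and grey lines between same-numbered libraries of the Gln experiment. PIK3IP1 lay between 8.05 and 11.3 CPM with MAPKi and between 1.02 and 1.26 CPM with DMSO, and the PIK3CA points of the CTRL and Gln-depleted groups were spread from 23.5 to 113 CPM.

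INSR, the receptor (minus strand of chromosome 19, 7112255 to 7294414 on GRCh38), had 139, 122 and 122 CPM in the MAPKi libraries and 70.8, 63.5 and 68.1 CPM in the DMSO libraries. Every MAPKi library was above every DMSO library, by a margin larger than the spread within either group. The rise was 1.90-fold, a log2 fold change of 0.92 ± 0.0626 (SE, n = 3 libraries each) with an adjusted p of 9.07e-07 in edgeR. A higher value in bulk RNA can come from more cells with the RNA or from more RNA per cell, which cannot be told apart here.

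The receptor substrates moved in opposite directions. IRS2, the adaptor gene on chromosome 13 (minus strand, 109752695 to 109786583), had 991, 1024 and 1020.3 CPM with MAPKi and 418, 420 and 428 CPM with DMSO. It was the most abundant member per length, its groups lay far apart, and the replicates of each group lay within a few percent of their mean. The rise was 2.4-fold (log2 fold change 1.26 ± 0.0393, SE, edgeR adjusted p = 7.33e-09). IRS1, its relative on chromosome 2 (minus strand, 226731312 to 226799820), had 15.8, 13.7 and 15.0 CPM with MAPKi and 20.4, 20.4 and 21.5 CPM with DMSO. All MAPKi values of IRS1 were below all DMSO values. IRS1 fell by 0.48 ± 0.0686 on the log2 scale (SE, edgeR adjusted p = 0.000146), but the adjusted p was 0.123 in the fit of all 12 libraries.

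The PI3K subunits had the smallest log2 fold changes of the members with MAPKi. PIK3CA, the p110α catalytic subunit (chromosome 3, plus strand, 179148114 to 179240093), had 69.8, 71.1 and 72.3 CPM with MAPKi and 78.3, 75.4 and 72.9 CPM with DMSO. The groups nearly touched, and the log2 fold change of -0.09 ± 0.0409 (95% interval -0.17 to -0.01) had an edgeR adjusted p of 0.0748, and 0.0394 without DMSO 3. PIK3R1, the p85α regulatory subunit (chromosome 5, plus strand, 68215740 to 68301821), had 72.3, 71.9 and 74.0 CPM with MAPKi and 66.1, 67.8 and 68.3 CPM with DMSO. These groups did not overlap but lay close together, and the log2 fold change was 0.11 ± 0.0364 (edgeR adjusted p = 0.0204). This adjusted p rose to 0.0522 without TMM scaling, to 0.0566 with DESeq2 and to 0.703 in the fit of all 12 libraries, and to between 0.0645 and 0.142 when MAPKi 2, MAPKi 3 or DMSO 1 was left out.

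PIK3IP1, a membrane protein that binds the PI3K catalytic subunit and inhibits it, rose most among the members. Its gene on chromosome 22 (minus strand, 31281594 to 31292534) had 11.3, 8.05 and 9.32 CPM with MAPKi and 1.26, 1.02 and 1.16 CPM with DMSO. The lowest MAPKi library was several times the highest DMSO library, although the gene remained the least abundant or next to least abundant of the members per length. The rise was 8.33-fold (log2 fold change 3.06 ± 0.162, SE, edgeR adjusted p = 1.7e-07). The row of PIK3IP1-DT, the non-coding gene that overlaps it on the other strand, held at most 1 read in any library.

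Among the transcription factors, FOXO3 and FOXO4 rose and FOXO1 fell. FOXO4 (chromosome X, plus strand, 71095851 to 71103532) had 42.7, 44.9 and 45.5 CPM with MAPKi and 23.6, 21.1 and 25.1 CPM with DMSO. The MAPKi libraries of FOXO4 were all well above the DMSO libraries, and the rise was 1.91-fold (log2 fold change 0.93 ± 0.0665, SE, edgeR adjusted p = 1.29e-06). FOXO3 (chromosome 6, plus strand, 108559835 to 108684774) had 124.5, 121 and 127 CPM with MAPKi and 74.1, 68.3 and 79.7 CPM with DMSO. No FOXO3 value of one group came near the other group. The rise was 1.68-fold (log2 fold change 0.75 ± 0.0579, SE), with an edgeR adjusted p of 2.2e-06 against no change and 0.00748 against the 1.5-fold threshold. FOXO1 (chromosome 13, minus strand, 40555667 to 40666641) had 38.5, 39.1 and 39.3 CPM with MAPKi and 45.2, 45.4 and 48.8 CPM with DMSO. The MAPKi values of FOXO1 were below the DMSO values in a narrow range, and FOXO1 fell by 0.25 ± 0.0457 on the log2 scale (edgeR adjusted p = 0.000718). In the fit of all 12 libraries the adjusted p of FOXO1 was 0.0971.

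FOXO3 cannot be counted free of a near-identical gene. Of the 7308 bases of its longest transcript, 74.152% matched FOXO3B, a copy derived from FOXO3, at 98% identity or more over at least 100 bases. FOXO3B had 12.7, 14.6 and 13.04 CPM with MAPKi and 12.3, 11.9 and 12.5 CPM with DMSO, and its log2 fold change of 0.14 had an edgeR adjusted p of 0.126. With the reads of both genes added, the level was 138 ± 2.32 CPM (SD, n = 3) with MAPKi and 86.3 ± 5.996 CPM with DMSO. The log2 fold change of the sum was 0.68 and its adjusted p against the 1.5-fold threshold was 0.0502, so the sum rose but was called upregulated only under the replicate block (adjusted p against the threshold 0.0187). FOXO3 alone was likewise not called by DESeq2, with an adjusted p against the threshold of 0.0541. PIK3CA matched other genes over 38.039% of its longest transcript, mostly KCNMB3, which overlaps it on the other strand, and FOXO1 matched a further locus on its own strand over 23.412%. The other 6 members had no such match. Whether reads were counted by strand is not given in the sources used here, so reads of PIK3CA and KCNMB3 could be exchanged, and KCNMB3 held at most 2.32 CPM in any library.

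With Gln depletion, none of the 9 members was up- or downregulated beyond 1.5-fold, where 3.19% and 2.39% of all 12512 genes tested were. FOXO3 was 1.43-fold higher, and FOXO1 and PIK3IP1 were lower, without overlap between the groups. INSR, PIK3CA, IRS2 and FOXO4 were higher in all 3 pairs of libraries with the same replicate number, though their groups overlapped. Some of these differences were small, with log2 ratios of 0.01, 0.24 and 0.03 for IRS2 and 0.02, 0.05 and 0.32 for FOXO4. The share of all genes that were higher in all 3 pairs was not counted. None of these 7 passed the test against no change in edgeR without the replicate block. These libraries were more variable than those of the MAPKi experiment, and same-numbered Gln-depleted and CTRL libraries deviated together. The call of 0 members came from edgeR without the replicate number in the model, in which 1 member was higher and 1 lower at an unadjusted p under 0.05. Against no change 0 members passed, where 8.79% of all genes rose and 9.64% fell. DESeq2 also called 0 members beyond 1.5-fold, where 399 and 231 of 12504 genes were up- and downregulated. DESeq2 found 1 member, FOXO3, higher against no change (adjusted p = 0.0348). With the replicate number as a block, FOXO3, INSR and PIK3CA rose and FOXO1 fell against no change, where 24% and 25% of all genes did. Under the block 0 members passed the 1.5-fold threshold, where 1048 and 1030 of all 12512 genes were up- and downregulated. In the fit of all 12 libraries FOXO3 (adjusted p = 0.00467), FOXO1 (0.0131) and PIK3IP1 (0.032) passed against no change. The share of all genes that passed against no change was not counted for that fit or for DESeq2. The median log2 fold change was 0.09 over the members and -0.03 over all genes tested.

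INSR had 107, 70.7 and 58.5 CPM in the Gln-depleted libraries and 76.8, 59.0 and 43.6 CPM in the CTRL libraries. The groups overlapped, but each Gln-depleted library was above its same-numbered CTRL library, by log2 ratios of 0.48, 0.26 and 0.42. The log2 fold change of INSR was 0.40 ± 0.294 (SE, edgeR adjusted p = 0.366), and 0.39 ± 0.113 with an adjusted p of 0.0236 under the replicate block. In experimental batch 2 alone it was 0.37, with an adjusted p of 0.15 without the block and 0.0336 with it.

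IRS2 had 427, 357 and 318 CPM with Gln depletion and 423, 303 and 312 CPM in CTRL. Replicate 1 was the highest in both groups, which overlapped, and the log2 fold change of 0.09 ± 0.207 (95% interval -0.32 to 0.49) had an edgeR adjusted p of 0.793. IRS1 had 10.8, 20.3 and 26.4 CPM with Gln depletion and 22.7, 20.4 and 17.2 CPM in CTRL. The IRS1 libraries went opposite ways in the pairs, with log2 ratios of -1.07, -0.00 and 0.62, and the log2 fold change was -0.07 ± 0.32 (edgeR adjusted p = 0.903). Its sign depended on replicate 1: in experimental batch 2 alone the log2 fold change was 0.35, and the test was not passed there either.

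PIK3CA had 44.8, 113 and 94.2 CPM with Gln depletion and 23.5, 87.4 and 67.6 CPM in CTRL. Replicate 1 was the lowest of each group by far, so the groups overlapped although every pair was higher with Gln depletion, with log2 ratios of 0.93, 0.37 and 0.48. The log2 fold change of PIK3CA was 0.50 ± 0.496 (edgeR adjusted p = 0.511), and 0.59 ± 0.14 with an adjusted p of 0.0105 under the replicate block. With a correction for GC content in addition to the block, it was 0.33 with an adjusted p of 0.0404. In experimental batch 2 alone it was 0.45, with an adjusted p of 0.0819 without the block and 0.0134 with it. The overlapping KCNMB3 had a log2 fold change of 1.38 (edgeR adjusted p = 0.153, and 0.0126 under the block). PIK3R1 had 45.4, 62.8 and 55.8 CPM with Gln depletion and 36.8, 72.8 and 81.6 CPM in CTRL. Its groups overlapped and its pairs disagreed in direction, and the log2 fold change was -0.22 ± 0.304 (edgeR adjusted p = 0.64).

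PIK3IP1 had 0.408, 0.191 and 0.396 CPM with Gln depletion and 1.42, 0.581 and 0.469 CPM in CTRL. All Gln-depleted values were below all CTRL values, on a mean normalized count of 21.0 reads per library. The log2 fold change of -1.31 ± 0.558 (95% interval -2.4 to -0.21) had an edgeR adjusted p of 0.134, and 0.0521 under the block, so the difference did not pass the test at this depth. Without replicate 1, in experimental batch 2 alone, the log2 fold change was -0.82.

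FOXO3 had 72.0, 90.4 and 74.8 CPM with Gln depletion and 56.5, 58.6 and 50.9 CPM in CTRL. The groups did not overlap, and the pairs differed by log2 ratios of 0.35, 0.63 and 0.55. The log2 fold change of FOXO3 was 0.51 ± 0.177 (edgeR adjusted p = 0.0779), and 0.51 ± 0.116 with an adjusted p of 0.00895 under the block. In experimental batch 2 alone it was 0.62, with an adjusted p of 0.0232 without the block and 0.00337 with it. FOXO3B had 21.7, 36.3 and 27.7 CPM with Gln depletion and 10.3, 16.1 and 16.3 CPM in CTRL, and it rose by a log2 fold change of 1.01 ± 0.274 (edgeR adjusted p = 0.0403). The sum of FOXO3 and FOXO3B was 108 ± 17.1 CPM (SD, n = 3) with Gln depletion and 69.6 ± 4.46 CPM in CTRL. Its log2 fold change was 0.63 with an edgeR adjusted p of 0.05002, and 0.62 with an adjusted p of 0.00384 under the block.

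FOXO1 had 31.3, 30.7 and 24.3 CPM with Gln depletion and 39.9, 38.4 and 36.8 CPM in CTRL. The groups did not overlap, and the log2 fold change was -0.41 ± 0.18 (edgeR adjusted p = 0.142), and -0.42 ± 0.119 with an adjusted p of 0.021 under the block. In experimental batch 2 alone its adjusted p was 0.093 without the block and 0.0278 with it. FOXO4 had 22.3, 16.3 and 17.9 CPM with Gln depletion and 21.9, 15.8 and 14.3 CPM in CTRL. Its groups overlapped, and the log2 fold change of 0.12 ± 0.235 (95% interval -0.34 to 0.58) had an edgeR adjusted p of 0.751. Members without overlap between the groups were thus FOXO3, higher, and FOXO1 and PIK3IP1, lower, where 18.6% of all genes were higher and 22.1% lower without overlap.

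**Figure D2:**
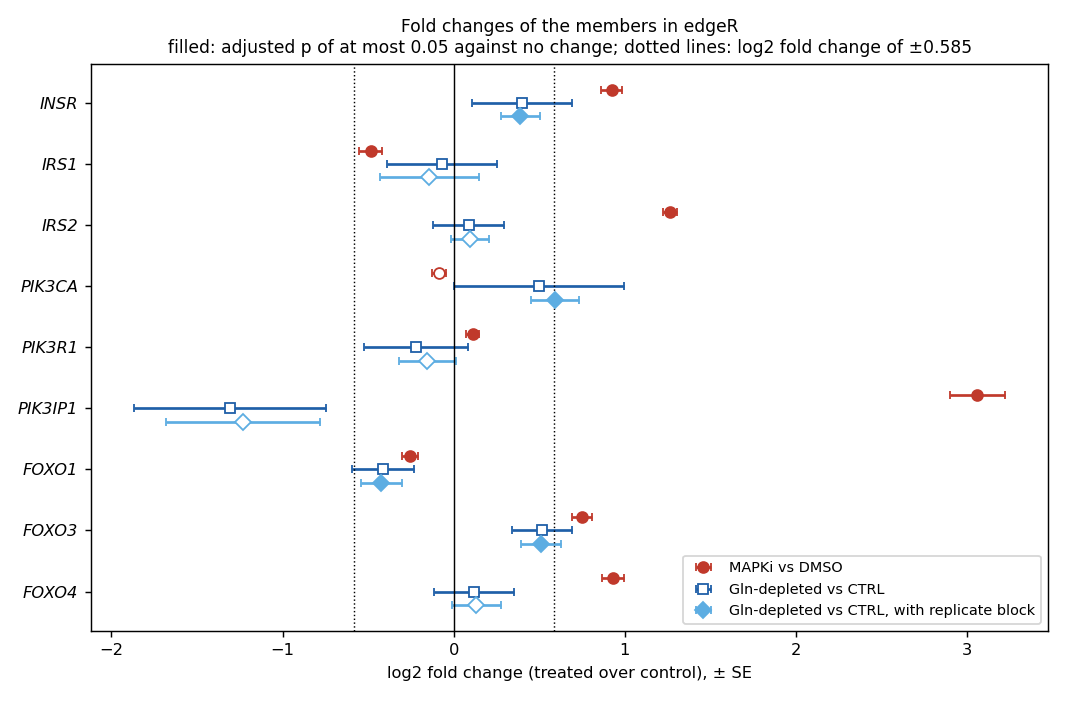
Log2 fold changes (x axis) of the 9 members with MAPKi against DMSO and with Gln depletion against CTRL, the latter without and with the replicate block, with bars for the SE, dotted lines at 1.5-fold in each direction and filled symbols for an adjusted p of at most 0.05 against no change. With MAPKi the estimates ran from -0.48 for IRS1 to 3.06 for PIK3IP1, and with Gln depletion only the blocked estimates of INSR, PIK3CA, FOXO1 and FOXO3 are filled.

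The difference between the responses was tested as the MAPKi effect minus the Gln depletion effect in one model of all 12 libraries, each effect against its own control. FOXO4, IRS2 and PIK3IP1 responded more to MAPKi than to Gln depletion, where 40.5% of all 12627 genes differed in either direction. In edgeR 0 of the 9 members responded less to MAPKi, where 2643 of the 12627 genes did, and 0 did so at an unadjusted p under 0.05. In DESeq2 0 members did so, where 2953 of 12617 genes did. The difference was 4.39 ± 0.598 on the log2 scale for PIK3IP1 (edgeR adjusted p = 0.000146), 1.20 ± 0.232 for IRS2 (adjusted p = 0.00166) and 0.83 ± 0.264 for FOXO4 (adjusted p = 0.0256). The FOXO4 difference had an adjusted p between 0.0509 and 0.067 when any one of MAPKi 2, MAPKi 3, DMSO 1, DMSO 2, Gln-depleted 2 or Gln-depleted 3 was left out. For FOXO3 the difference was 0.25, with a 95% interval of -0.06 to 0.57 and an edgeR adjusted p of 0.231, which does not show that the responses were alike. With the GC-content correction and the replicate block together, the FOXO3 difference was 0.30 with an adjusted p of 0.0347. INSR differed by 0.54 (adjusted p = 0.232 in edgeR) and, under the replicate block, by 0.55 with an adjusted p of 0.00151. Without Gln-depleted 1, INSR differed by 0.85 (edgeR adjusted p = 0.0265) and IRS1 by -0.67 (adjusted p = 0.0264). PIK3CA differed by -0.58 (adjusted p = 0.411 in edgeR) and, under the block, by -0.66 with an adjusted p of 0.0044. FOXO1, IRS1 and PIK3R1 did not pass with or without the block, with differences of 0.18, -0.39 and 0.34 without it, but PIK3R1 differed by 0.59 (edgeR adjusted p = 0.0138) without CTRL 1 and by 0.50 (adjusted p = 0.043) with the GC-content correction. The sequencing batches coincide with the experiments, and their part in these differences cannot be told apart from that of the treatments.

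To compare the members with each other, levels were expressed as CPM per kilobase of merged exon. In DMSO libraries IRS2 was the highest at 51.7 ± 0.657 (SD, n = 3), followed by FOXO3 at 9.65 ± 0.747, FOXO1 at 7.80 ± 0.339, INSR at 6.23 ± 0.338, FOXO4 at 6.14 ± 0.528, PIK3CA at 4.39 ± 0.158, PIK3R1 at 4.13 ± 0.0729, IRS1 at 2.07 ± 0.0648 and PIK3IP1 at 0.302 ± 0.0319. Neighbours in this order did not overlap between libraries except INSR and FOXO4. In MAPKi libraries the order per length was IRS2, FOXO3, INSR, FOXO4, FOXO1, PIK3R1, PIK3CA, PIK3IP1 and IRS1, with overlap only between INSR and FOXO4. Thus FOXO1 stood below INSR and FOXO4, PIK3CA below PIK3R1 and IRS1 below PIK3IP1, where in DMSO they stood above them. In CTRL libraries IRS2 was again the highest at 42.4 ± 8.21 and PIK3IP1 the lowest at 0.216 ± 0.137, and all neighbours in the order overlapped except IRS2 and FOXO3, and IRS1 and PIK3IP1. In Gln-depleted libraries IRS2, FOXO3, INSR, FOXO4, PIK3CA, FOXO1, PIK3R1, IRS1 and PIK3IP1 followed each other, and the neighbours from FOXO3 to FOXO1 overlapped. The order in the middle depends on the length used, and by the longest transcript PIK3R1 stood above PIK3CA in DMSO already. By the longest transcript, PIK3R1 and PIK3CA stood next to FOXO3 in DMSO libraries, since their merged exons span 16323 and 17189 bases and their longest transcripts 6975 and 9259 bases.

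**Figure D3:**
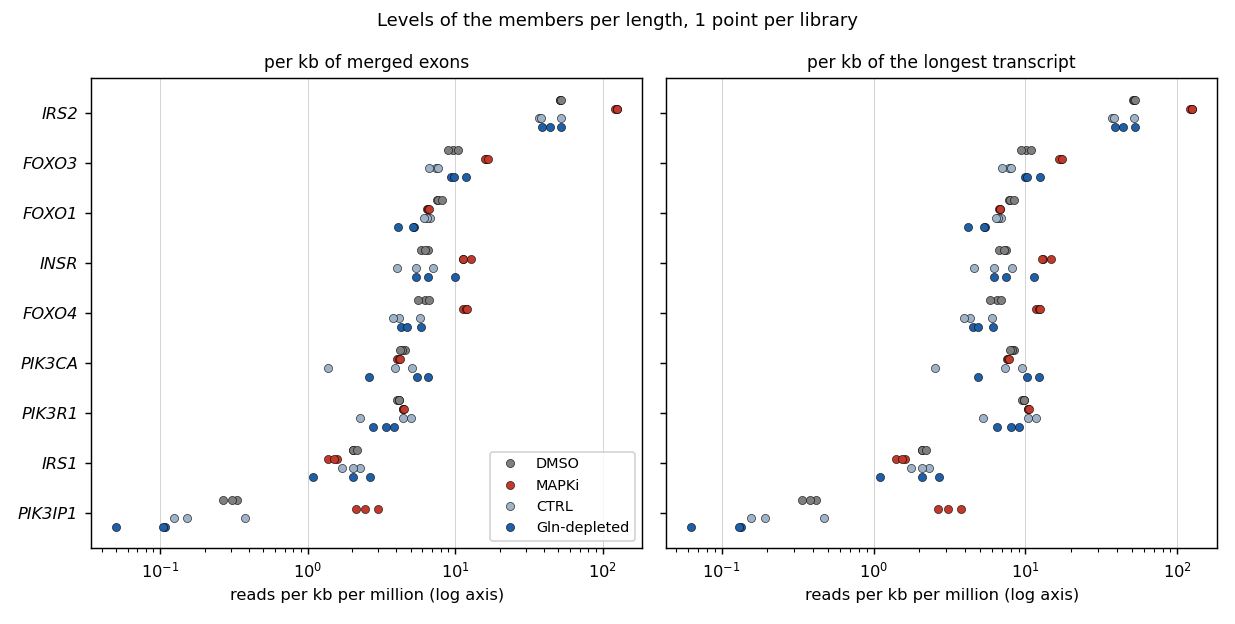
CPM per kilobase (log x axis) for the 9 members, with 1 point for each library of the 4 groups, per kilobase of merged exons on the left and of the longest transcript on the right. IRS2 was the highest member in all 4 groups and PIK3IP1 the lowest in all but MAPKi, in which IRS1 was the lowest; PIK3CA and PIK3R1 stood higher on the right.

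Within families, the shares per length shifted toward IRS2, FOXO3 and FOXO4 with MAPKi. IRS2 made up 98.7, 98.9 and 98.8% of the reads per kilobase of IRS1 and IRS2 in the MAPKi libraries and 96.2, 96.2 and 96.1% in the DMSO libraries. FOXO1 made up 19.0 ± 0.234% (SD, n = 3) of the reads per kilobase of the 3 FOXO genes with MAPKi and 33.1 ± 1.20% with DMSO, whereas FOXO3 made up 47.1 ± 0.803% and 40.9 ± 0.529%, and FOXO4 33.9 ± 0.733% and 26.0 ± 0.678%. These shares did not overlap between the groups. PIK3R1 made up 51.9 ± 0.299% of the reads per kilobase of PIK3R1 and PIK3CA with MAPKi and 48.5 ± 1.33% with DMSO, also without overlap. Each of these 5 comparisons had p = 0.1 in a two-sided exact permutation test, which is the smallest p that 3 against 3 libraries allow, and 0.143 after adjustment over 10 comparisons.

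With Gln depletion FOXO1 made up 25.6, 24.3 and 22.005% of the reads per kilobase of the FOXO genes, against 33.8, 35.3 and 37.2% in CTRL, and FOXO3 made up 45.8, 55.5 and 52.6% against 37.1, 41.9 and 40.02%. Neither share overlapped between the groups, and each had p = 0.1 in the exact permutation test, the smallest possible. The FOXO4 share was 24.8% with Gln depletion and 24.9% in CTRL (exact permutation p = 1), and the IRS2 share was 95.7 ± 2.16% and 95.4 ± 0.552% (exact permutation p = 0.9). The PIK3R1 share was 42.3 ± 8.10% and 55.0 ± 7.82%, with overlap (exact permutation p = 0.2, adjusted 0.25), and it was lower with Gln depletion in each of the 3 same-numbered pairs, which were not tested as pairs.

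**Figure D4:**
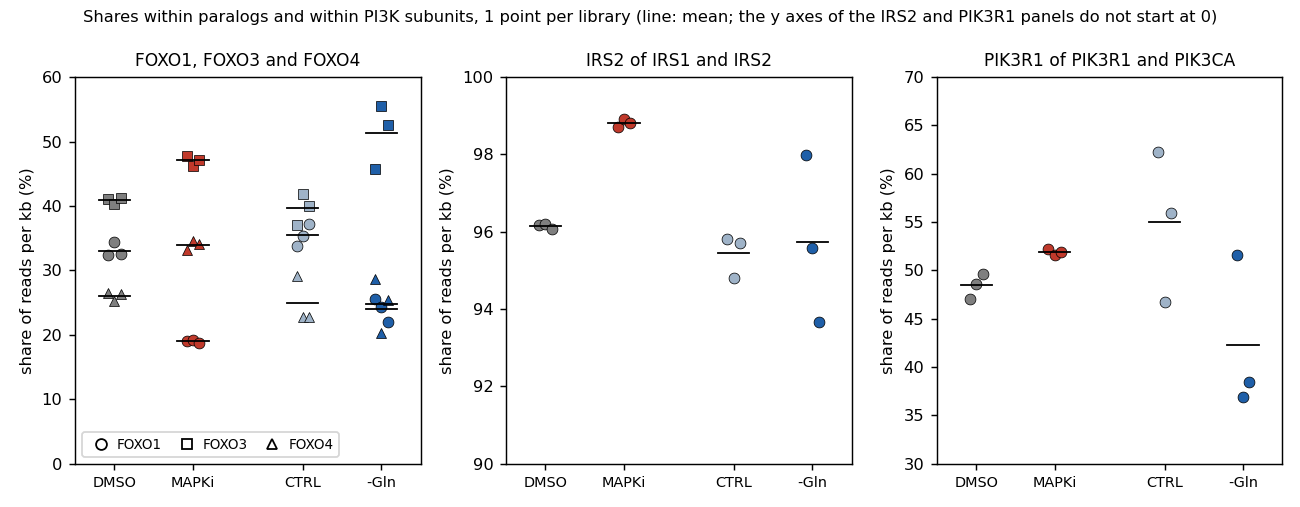
Shares of the reads per kilobase within the FOXO genes, within IRS1 and IRS2, and within PIK3R1 and PIK3CA (y axes in percent; those of the IRS2 and PIK3R1 panels do not start at 0), with 1 point for each library of the 4 groups and a line at the mean. The FOXO1 share was lower in both treatments than in their controls, 19.0% against 33.1% with MAPKi and 24.0% against 35.4% with Gln depletion.

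Across the 12 libraries, after centring on each experiment, the likeness between members was described by Pearson's r, and the centring leaves the difference between each treatment and its control in the values. The log2 CPM of IRS2 had an r of 0.964 with FOXO4, 0.886 with INSR, 0.883 with PIK3IP1 and 0.80 with FOXO3, PIK3IP1 had 0.691 with INSR and 0.529 with FOXO3, and FOXO1 and FOXO3 had an r of -0.71. PIK3CA and PIK3R1 had an r of 0.697 with each other. These values describe 12 libraries that share the 2 treatments and their own differences in composition, and no p is given. By the same measure the gene most like each member was XRCC5 for FOXO1 (r = 0.986), PLEKHM3 for FOXO3 (0.993), MAP3K12 for FOXO4 (0.987), SAT1 for IRS1 (0.915), SLC25A20 for IRS2 (0.992), RNF103 for INSR (0.988), NUCB1 for PIK3IP1 (0.991), GMFB for PIK3CA (0.993) and BPTF for PIK3R1 (0.962). Of 12626 other genes, the number with an r of at least 0.9 was 519 for PIK3IP1, 503 for IRS2, 423 for PIK3CA, 390 for FOXO4, 321 for FOXO3, 231 for INSR, 168 for FOXO1, 48 for PIK3R1 and 3 for IRS1.

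The rest of the pathway was described by 9 lists with 113 genes in all. With MAPKi, 95 of them were tested, 26 were upregulated and 17 downregulated, and with Gln depletion 93 were tested, 8 upregulated and 7 downregulated. Of all genes tested, 17% were upregulated and 18.6% downregulated with MAPKi, and 3.19% and 2.39% with Gln depletion. Under the replicate block the Gln depletion counts were 12 and 15, where 1048 and 1030 of all 12512 genes tested were called. Leaving out genes with a further row in the table, 92 were tested with MAPKi, 25 upregulated and 17 downregulated. The targets that FOXO factors are known to activate were the largest list, with 22 of these 92 genes. They gave 11 of the 25 genes upregulated with MAPKi and 3 of the 17 downregulated.

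Upstream of the members, INS and IGF2 had 0 reads, INSRR at most 1 read and IRS4 at most 7 reads in any library. Of the 3 ligand and receptor genes tested with MAPKi, 2 were upregulated, IGF2R, a receptor that clears IGF2 (log2 fold change 0.71 ± 0.0693, not called by DESeq2 with an adjusted p of 0.269), and IGF1, a growth factor with 0 to 33 reads per library, which is named here after its values were seen. IGF1R, the receptor closest to INSR, fell by 0.33 ± 0.0611. With Gln depletion IGF1R and IGF2R passed only under the block and against no change, with log2 fold changes of 0.48 and 0.72. Of 6 IGF-binding proteins, which hold IGFs outside the cell, IGFBP6 and IGFBP5 were upregulated with MAPKi (1.60 and 1.03) and IGFBP3 and IGFBP4 downregulated (-2.63 and -1.20). With Gln depletion IGFBP3 was upregulated, with a log2 fold change of 2.88 ± 0.366.

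Among 7 other adaptors of insulin and growth factor receptors, SH2B1 and GAB1 were upregulated with MAPKi (log2 fold changes 1.19 and 1.03) and SH2B2 and GAB2 downregulated (-2.77 and -1.5). GAB2, a docking protein that also recruits PI3K, was downregulated with Gln depletion as well (-1.49 ± 0.223), and GAB1 had -1.15 and SHC1, an adaptor to the RAS pathway, 1.03 there, which passed the test against no change and, under the block, the threshold. Of 8 inhibitors of insulin receptor signalling, 3 were downregulated with MAPKi, and the rises of SOCS3 (0.66) and PTPN1 (0.20) passed only the test against no change. PTPRF, a receptor phosphatase, and GRB10 and GRB14, adaptors that block the receptor, were the downregulated ones, with log2 fold changes of -2.12, -1.09 and -2.87, and GRB14 is named after its values were seen. With Gln depletion GRB10 was upregulated (1.06 ± 0.158) and ENPP1 downregulated (-1.39 ± 0.205), and DESeq2 did not call GRB10 beyond the threshold (adjusted p = 0.106).

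Of the other class I PI3K subunits, 4 of 7 were tested, and PIK3CG, PIK3R5 and PIK3R6 had at most 4 reads in any library. PIK3R3, the p55γ regulatory subunit, was upregulated with MAPKi (log2 fold change 2.43 ± 0.0971, edgeR adjusted p = 3.01e-08). PIK3R2, the p85β subunit, rose by 0.33 ± 0.0432, and the catalytic subunits PIK3CB and PIK3CD did not pass the test (-0.03 and 0.14). With Gln depletion PIK3R3 fell by 1.65 ± 0.357 on the log2 scale (edgeR adjusted p = 0.0194), which passed the threshold under the block only. PIK3CB, PIK3CD and PIK3R2 had 0.10, -0.72 and -0.53 there and did not pass without the block.

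Among the phosphatases and inhibitors of PI3K and AKT, 2 of the 8 tested genes without a further row in the table were upregulated with MAPKi, INPP5K and INPP5J, and TRIB3, a pseudokinase that binds AKT, was downregulated (log2 fold change -1.13 ± 0.0626). INPP5K and INPP5J, which remove a phosphate from the PI3K lipid product, had 0.76 and 3.62, and INPP5J is named after its values were seen. With Gln depletion TRIB3 was upregulated (3.15 ± 0.204, edgeR adjusted p = 0.00103) together with INPP5J (2.75), and PHLPP1, a phosphatase of AKT, was downregulated (-1.42 ± 0.25) in edgeR and not in DESeq2 (adjusted p against the threshold 0.123).

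Of 21 tested genes of AKT, SGK and the mTOR complexes, PDPK1, the kinase that activates AKT, TBC1D7 and TSC2 were upregulated with MAPKi (log2 fold changes 1.06, 1.06 and 0.86), of which DESeq2 did not call TBC1D7 (adjusted p against the threshold 0.228). PRR5 and RHEB, the activator of mTORC1, were downregulated (-1.78 and -0.94). AKT1 had 0.04 and did not pass the test, and AKT2 rose by 0.23. With Gln depletion SGK1, a kinase related to AKT that also phosphorylates FOXO proteins, was downregulated (-1.22 ± 0.189) in edgeR and not in DESeq2 (adjusted p against the threshold 0.167), and AKT1 had -0.68 with an edgeR adjusted p of 0.0509, and 0.0039 under the block. FOXO6, a further FOXO gene, had at most 6 reads in any library.

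Of 15 tested partners and regulators of FOXO factors, 2 were upregulated and 4 downregulated with MAPKi. The acetyltransferase CREBBP and the kinase NLK were upregulated (log2 fold changes 0.89 and 0.82). The downregulated genes were SKP2 (-1.58), a ubiquitin ligase subunit that targets FOXO1, the nuclear exporter XPO1 (-1.0), and YWHAZ and YWHAH (-0.97 and -0.93), which encode 14-3-3 proteins that hold phosphorylated FOXO proteins in the cytoplasm. YWHAH is named for MAPKi after its values were seen. With Gln depletion 4 of them passed the test against no change and not the threshold, SIRT1 (1.09) and STK4 (0.92) higher and SKP2 (-0.98) and YWHAH (-0.87) lower. Under the block SIRT1 and STK4 were upregulated and SKP2 downregulated beyond 1.5-fold, and 6 genes were higher and 4 lower against no change.

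Of 22 tested genes that FOXO factors are known to activate, 11 were upregulated and 3 downregulated with MAPKi, where 17% and 18.6% of all genes were, and the median log2 fold change of the list was 0.77, against 0.00 over all genes. The largest rises were those of the transcriptional cofactor CITED2 (1.87 ± 0.0618), the pro-apoptotic BCL2L11 (1.70 ± 0.061) and the muscle ubiquitin ligase TRIM63 (1.65 ± 0.0584). PDK4, an inhibitory kinase of pyruvate dehydrogenase, GADD45A and BNIP3 were downregulated (-2.20, -0.97 and -0.79). With Gln depletion 4 of the 22 were upregulated and 3 downregulated, or 4 and 6 under the replicate block, and the median was 0.17. Of all genes, 3.19% and 2.39% were called without the block, and 1048 and 1030 of 12512 with it. GADD45A, a stress gene that answers to several other factors, had 3.11 ± 0.346, GABARAPL1 1.59 ± 0.23 and the cell cycle inhibitor CDKN1A 1.45 ± 0.249. DEPP1, TRIM63 and PDK4 were downregulated with Gln depletion (-4.77, -3.64 and -2.84). CDKN1A, GABARAPL1 and the pro-apoptotic BBC3 were upregulated with each treatment, and PDK4 was downregulated with each. TRIM63 and DEPP1 were upregulated with MAPKi and downregulated with Gln depletion, and GADD45A went the opposite way. Whether the list as a whole differs from other genes was not tested.

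**Figure D5:**
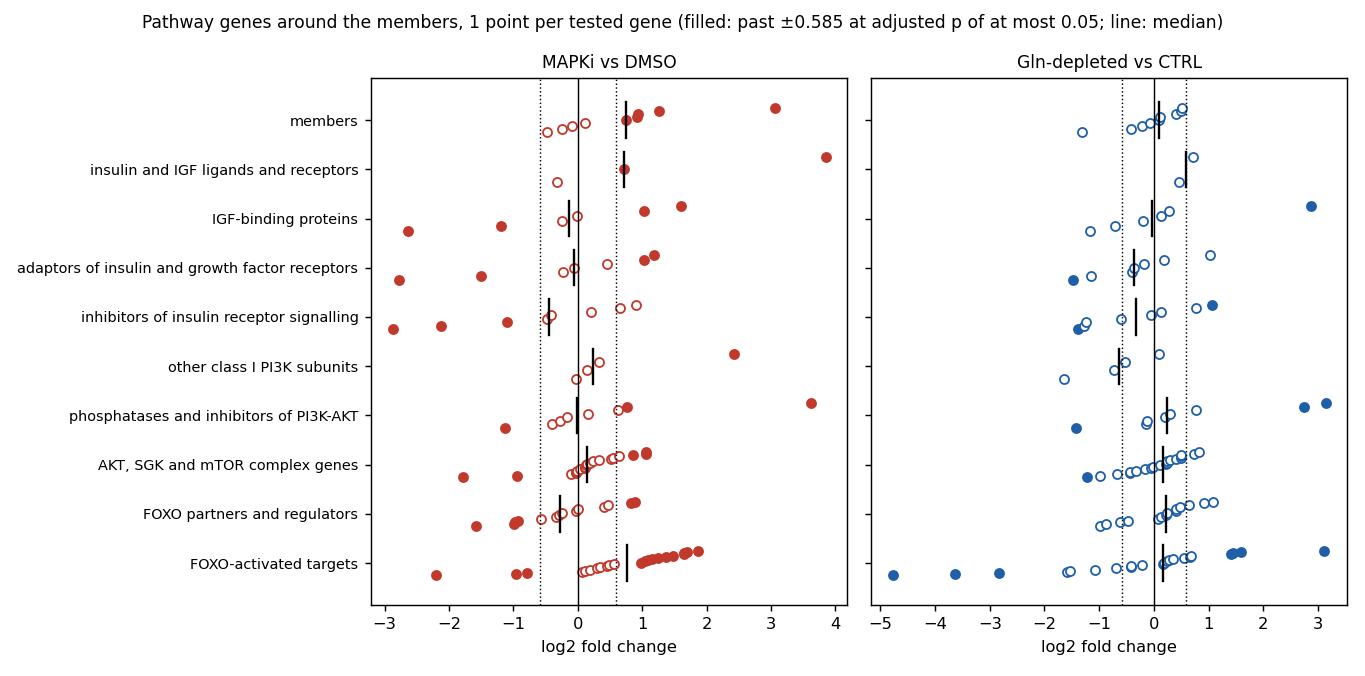
Log2 fold changes (x axes) of the tested genes of the members and of the 9 pathway lists with MAPKi (left) and Gln depletion (right), leaving out genes that have a further row in the table, with filled points for genes called beyond 1.5-fold, dotted lines at that threshold and a bar at each list's median. The 22 FOXO-activated targets lay mostly to the right of 0 with MAPKi, with 11 of them filled on that side, and on both sides of 0 with Gln depletion.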

How the data were processed

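Raw read counts per gene were deposited by the authors, who trimmed reads with fastp 0.20.1, aligned them to GRCh38 with HISAT2 2.2.1 and counted them with HTSeq 0.13.5 per the labels. The labels name RNA of the cytoplasmic fraction after Triton lysis, and rRNA was depleted. The paper's methods instead describe total RNA for RNA-seq, and which of them holds for these libraries was not settled here. Counts were normalized by TMM and tested with edgeR 4.0.16 (R 4.3.3), keeping protein-coding genes whose normalized counts averaged 10 or more, each treatment against its own control, with Benjamini-Hochberg adjustment over all genes tested; up- and downregulation were tested against a change of 1.5-fold. DESeq2 1.42.0 was an alternative. CPM are TMM-normalized. Same-numbered libraries deviated together in the Gln experiment (r = 0.5846, 0.440 and 0.386) and only weakly in the MAPKi experiment (0.0687, 0.0580 and 0.0564). The other pairs of MAPKi and DMSO libraries had r between -0.0364 and -0.0218. The replicate block is therefore reported mainly for the Gln experiment. Genes were named by rule: all members, a fixed set of kinase, receptor and phosphatase genes, and, for each list, up to 3 largest rises and falls among genes averaging 50 or more counts that passed the test. The members and lists were chosen with earlier results of these data known. Near-identical stretches were found by aligning transcripts to each other, and promoters came from RefSeq. The fits were tested on simulated counts with 200 changed genes, of which 199 were recovered for MAPKi against DMSO and 129 for Gln depletion against CTRL. Recovery was not tested separately for differences of the size seen in the members. The call of 0 members with Gln depletion therefore does not show that no member changed. Shares were compared by exact permutation with scipy 1.17.1.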

Additional observations from a re-analysis of the deposited data

How the results depend on the processing

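With a fold threshold of 2, or in the fit of all 12 libraries, 2 members were upregulated with MAPKi. At that threshold 1030 of 12594 genes were, and in that fit 1372 of 12627. Without a fold threshold 2 members were downregulated with or without the replicate block, where 5039 and 4933 of 12594 genes were. Under the replicate block without a fold threshold, 3 members were higher and 1 lower with Gln depletion. Of the differences between the responses, 4 were higher and 1 lower under the block, and 6 and 1 with the GC-content correction and the block together. Of all 12627 genes, 3661 were higher and 4056 lower under the block, and 3652 and 3880 with the correction and the block. With each library left out in turn, 2 to 4 members were higher and 0 to 1 lower, the 1 being IRS1 without Gln-depleted 1. In these fits 2021 to 3060 of all genes were higher and 2190 to 3032 lower. In the MAPKi experiment, where same-numbered libraries deviated together only weakly, 5 members were upregulated with and without the block, where 2214 and 2137 of 12594 genes were. With the reads of FOXO3 and FOXO3B added, 5 were upregulated with it and 4 without it, where 2214 and 2136 of 12593 genes were. In experimental batch 2 alone, 3 members were higher and 1 lower with Gln depletion under the block, and 1 higher without it. These were tests against no change, for which the share of all genes was not counted in batch 2. Without a fold threshold 48 pathway genes were higher and 29 lower with MAPKi, and 16 and 16 with Gln depletion, or 28 and 29 under the block. Of all genes, 38.9% and 39.2% did so with MAPKi, 8.79% and 9.64% with Gln depletion, and 24% and 25% under the block. At the 1.5-fold threshold the block gave 12 upregulated and 15 downregulated pathway genes, where 1048 and 1030 of all 12512 genes were called. Leaving out a library of the Gln experiment gave 4 to 7 up- and 2 to 8 downregulated pathway genes, where 160 to 435 and 69 to 420 of all genes were called. The pathway counts were lowest without Gln-depleted 2, and leaving out CTRL 2, CTRL 3 or Gln-depleted 3 also lowered a count by over 1.5-fold.

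The sign of small changes depended on the setting, and in each of these cases the change did not pass the test. PIK3CA with MAPKi was 0.00115 on the log2 scale with the GC-content correction and 0.00177 with the block added. With Gln depletion, total counts without TMM gave -0.0048 for FOXO4 and -0.0398 for IRS2, and moved the median of all genes from -0.03 to -0.16. IRS1 was 0.0241 with the GC-content correction, 0.35 in experimental batch 2 alone and 0.34 there with the block. With each library left out in turn, the log2 fold change with Gln depletion ran from -0.0196 to 0.37 for FOXO4, -0.37 to 0.22 for IRS1, -0.0339 to 0.30 for IRS2 and -0.0659 to 0.29 for PIK3CB. For other members it kept its sign but moved by over 1.5-fold, from 0.16 without CTRL 1 to 0.88 without CTRL 2 for PIK3CA, 0.11 without Gln-depleted 1 to 0.68 without CTRL 1 for INSR, -0.46 without CTRL 1 to -0.00339 without CTRL 3 for PIK3R1, and -1.59 without CTRL 3 to -0.61 without CTRL 1 for PIK3IP1. Per kilobase of the longest transcript, the DMSO levels were 7.13 CPM for INSR, 0.379 for PIK3IP1, 8.16 for PIK3CA and 9.66 for PIK3R1. The shares within families kept their direction with the longest transcript and with each library left out, except those of FOXO4 and IRS2 with Gln depletion, whose direction varied. Apart from the lengths, the causes of these shifts were not tested. PIK3IP1 had the fewest reads of the members in the Gln experiment, 21.0 on average, and the part of this depth in its result was not tested.

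Alternatives on experimental batch 2 alone, on the added reads of FOXO3 and FOXO3B, on genes with a further row, and those joining the block with another choice were chosen after seeing the data.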
